A study of Mus musculus with 8 samples.

Results

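The 7 genes described here are receptors of the tumour necrosis factor (TNF) family and the RANKL axis of mouse cartilage cells, out of 18501 genes in the deposited table. They are Tnfrsf22, Tnfrsf23, Tnfrsf11b, Tnfsf11, Tnfrsf1a, Tnfrsf1b and Tnfrsf12a, taken by their gene symbols. The list was drawn up with results of these data known. In those results Tnfrsf23 had been named for its higher level in mutant chondrocytes, and which values brought in the other 6 is not recorded. The members count as selected on the mutant comparisons. Every comparison of mutants with wild types is therefore given below as a description of the members, with no test. The comparisons between the mouse lines carry their tests. Selection of members on differences between the lines is not excluded either, so their adjusted p-values there may be too small.

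The libraries hold RNA of rib cartilage chondrocytes from CD1 mice at 10 days of age, in 4 groups of 2 libraries. The CT mutants carry a C>T base change in the gene of the microRNA miR-140, and the CT wild types are their own wild-type group. The CG mutants carry a mutated seed region in the 3p arm of miR-140, and the CG wild types are theirs. Both mutations are described as giving 5p overexpression, and the labels do not give the number of mutant alleles. Cartilage had been digested with collagenase and the cells were plated, so all groups are plated primary cells and not whole tissue. Each group has its own mice, so that line, culture and sequencing batch cannot be told apart. Whether paired libraries of 1 group are from separate animals is not in the labels.

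Receptors of this family bind trimeric ligands outside the cell. Some carry a signalling tail that recruits TRAF adaptors or a death domain and leads to NF-kB or to caspases, and others are decoys that take up ligand without passing on the full signal. RANKL, encoded by Tnfsf11, drives the formation of osteoclasts through its receptor RANK, and osteoprotegerin, encoded by Tnfrsf11b, is a secreted decoy that blocks it. Chondrocytes are known to express both. Tnfrsf22 and Tnfrsf23 encode mouse decoy receptors for TRAIL, a ligand that can induce cell death. Tnfrsf1a and Tnfrsf1b encode the TNF receptors TNFR1 and TNFR2, and Tnfrsf12a encodes Fn14, the receptor of the cytokine TWEAK.

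The arm mutated in the CG line and parts of the transcripts of the paired decoy receptors are shown here. A link between them was not tested, and matches to the 5p arm were not searched. The mature arm and the hairpin of miR-140 come from RefSeq on GRCm38.p6, at chr8:107551288-107551308 and chr8:107551244-107551313 on the plus strand. Capitals mark the seed, bases 2 to 8, in the mature sequence, and the 3p arm in the hairpin.
miR-140-3p: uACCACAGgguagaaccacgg
Mir140 hairpin: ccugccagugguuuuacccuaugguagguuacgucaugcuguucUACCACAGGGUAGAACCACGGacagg
The 7 letters that pair with this seed, CTGTGGT, were found in the 3′ UTR of Tnfrsf22 and Tnfrsf23 and in none of the other 5 members. In GENCODE M21 transcripts the match starts at base 599 of the 3543-base 3′ UTR of Tnfrsf22-201 and at base 600 of the 929-base 3′ UTR of Tnfrsf23-202. Capitals mark the match in 30 bases around it.
Tnfrsf22: tgaatggtccaCTGTGGTtcctattaacat
Tnfrsf23: tgaatggtccaCTGTGGTtcctattaacat
The 2 windows are identical, letter for letter, so they are copies of one sequence and not separate cases. Of 13844 tested genes with a 3′ UTR of at least 50 bases, 19.3% held the same 7 letters. Among them 3.94% held the longer form CTGTGGTA, which neither of these windows has. The UTRs of the other members are 1375 bases for Tnfrsf11b, 1131 for Tnfsf11, 490 for Tnfrsf1a, 2324 for Tnfrsf1b and 546 for Tnfrsf12a, against a median of 1188 over these genes. A match of letters is a description of the transcript and not a site shown to be used.

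Tnfrsf22 and Tnfrsf23 lie next to each other on chromosome 7 and are close copies. Their coding sequences, aligned over 531 positions, were identical at 481, or 90.6%. Tnfrsf26, another receptor gene beside them, was identical to Tnfrsf22 at 60.1% of aligned positions and to Tnfrsf23 at 56.6%, and Tnfrsf1a and Tnfrsf1b were identical at 53.8%. The longest identical coding run of the pair spans 102 bases, from base 421 to 522 of the Tnfrsf22 coding sequence and from base 391 to 492 of that of Tnfrsf23, and reads that fall inside it fit both genes.
Shared run: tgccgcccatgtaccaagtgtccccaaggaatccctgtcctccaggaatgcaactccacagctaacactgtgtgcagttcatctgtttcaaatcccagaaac
The most different 120-base stretch, which separates the genes by 18 bases, is given for comparison, with the differing bases in capitals. It runs from base 77 to 196 in Tnfrsf22 and from base 47 to 166 in Tnfrsf23.
Tnfrsf22: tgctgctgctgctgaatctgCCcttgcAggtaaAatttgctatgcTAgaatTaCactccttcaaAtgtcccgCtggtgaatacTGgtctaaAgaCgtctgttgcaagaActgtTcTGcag
Tnfrsf23: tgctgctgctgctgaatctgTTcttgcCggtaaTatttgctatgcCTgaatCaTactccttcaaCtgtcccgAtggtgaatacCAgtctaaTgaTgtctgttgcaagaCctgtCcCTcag
Windows of 50 bases shared by both transcripts made up 10.3% of those of Tnfrsf22 and 29.9% of those of Tnfrsf23.

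The deposited counts show the copies sharing reads. Estimated counts were not whole in 7 of 8 libraries for either gene, while their sum was whole to within 0.015 in 8 of 8. The other 5 members had whole counts in every library. The split of reads between Tnfrsf22 and Tnfrsf23 thus rests in part on the authors' estimate, and results for the pair are given for each gene and for the sum.

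All libraries were of similar depth, with total counts between 26536868 and 28678641. Counts are also given as CPM, counts scaled to a common library size after TMM normalization, and levels of different genes are set against each other only in the authors' FPKM, which is per length. The lines separated along principal component 1 (64.5% of variance), and CG mutant replicate 1 lay far from the other 7 libraries along component 2 (12.2%). Chondrocyte markers such as Col2a1, Acan and Sox9 were counted in every library. The 9 on the list summed to between 40100 and 59800 CPM in the CT line and to between 30800 and 53200 CPM in the CG line. The sum of 53200 CPM was that of CG mutant replicate 1, and the next highest CG library had 32800 CPM. All 7 members passed the filter on low counts, which kept 14359 genes.

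In order of the median FPKM over the 8 libraries, Tnfrsf12a stood highest at 500.7, above 99.4% of genes in the table. Tnfrsf1a followed at 87.1 and Tnfrsf11b at 61.1. Tnfrsf23 was at 26.6, Tnfrsf22 at 14.3, Tnfrsf1b at 14.1 and Tnfsf11 at 2.17 FPKM, above 46.5% of genes. The libraries of Tnfrsf12a, from 456 to 593 FPKM, and of Tnfsf11, from 1.81 to 6.17 FPKM, did not overlap those of any other member. All neighbours between them in that order overlapped, for example Tnfrsf22 at 9.96 to 24.0 FPKM and Tnfrsf1b at 11.2 to 17.2 FPKM. Fn14, the TNF receptor TNFR1 and osteoprotegerin were thus the more abundant receptor transcripts, and the ligand RANKL the least abundant member.

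**Figure D1:**
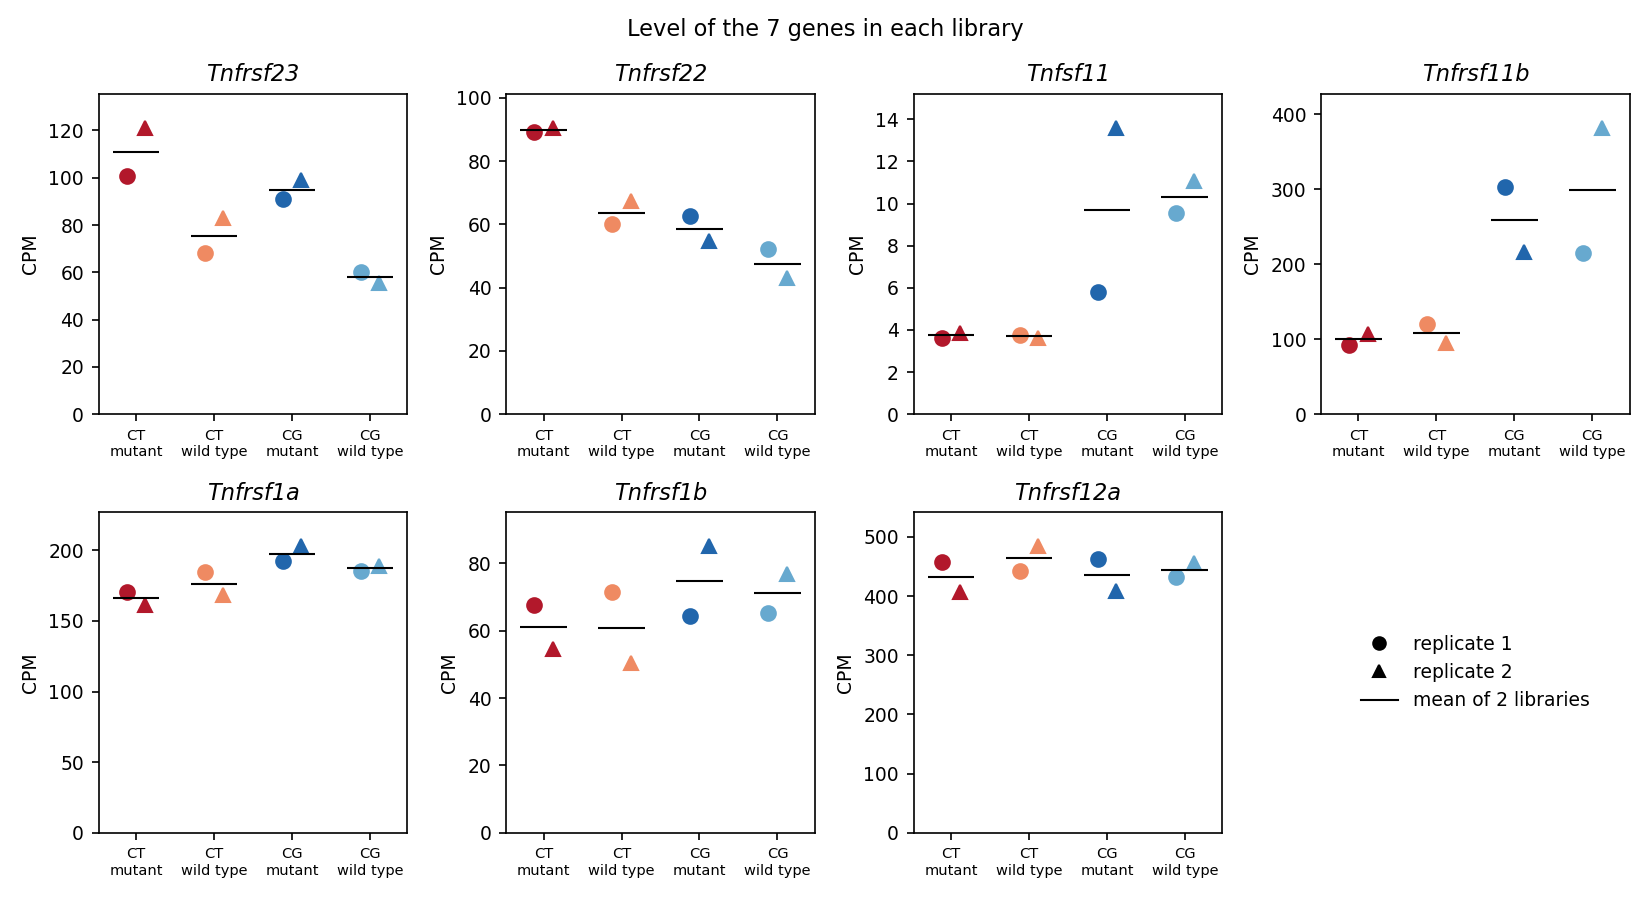
Level of each of the 7 genes in CPM (vertical axes from 0, a separate scale for each gene) in the 2 libraries of each of 4 groups, with circles for replicate 1, triangles for replicate 2 and a line at their mean. Tnfrsf23 and Tnfrsf22 are higher in the mutants of each line, while Tnfsf11 and Tnfrsf11b are lower in all 4 CT libraries than in all 4 CG libraries.

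RANKL transcripts were scarce in both lines and fewer in CT chondrocytes. Tnfsf11 had 3.63 and 3.86 CPM in CT mutants and 3.77 and 3.64 CPM in CT wild types, against 5.82 and 13.6 CPM in CG mutants and 9.56 and 11.1 CPM in CG wild types. These stand for 111, 114, 107 and 107 reads in the CT line, against 140, 356, 264 and 277 reads in the CG line, in the same order. All 4 CT libraries lay below all 4 CG libraries, and the CT values lay within a narrow band while CG mutant replicate 1 was the lowest of its line. Between the wild types the log2 fold change, CT over CG, was -1.47 ± 0.35 (SE) with an adjusted p of 0.0152 by edgeR's quasi-likelihood test with Benjamini-Hochberg adjustment over all genes tested. Between the mutants it was -1.38 ± 0.35, with an adjusted p of 0.0179 by edgeR. The comparison between mutants depended on the CG mutant library, at -1.86 ± 0.19 (adjusted p 0.000694 by edgeR) without CG mutant replicate 1 and at -0.64 ± 0.21 (adjusted p 0.0465 by edgeR) without CG mutant replicate 2. The call between wild types was lost when either CT wild type was left out, replicate 1 (adjusted p 0.0636) or replicate 2 (0.0753), and when replicate 2 of the CG wild types was (0.0792), all by edgeR, and the call between mutants was lost without CT mutant replicate 1 or 2, with adjusted p of 0.0921 and 0.0781. In limma on log2(FPKM + 1) the difference between mutants was -0.78 with an adjusted p of 0.0605.

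Osteoprotegerin transcripts were lower in CT chondrocytes too. Tnfrsf11b had 92.6 and 107 CPM in CT mutants and 120.4 and 94.9 CPM in CT wild types, against 303 and 216 CPM in CG mutants and 216 and 382 CPM in CG wild types. The lines did not overlap, and the CG wild types were the most spread group. The log2 fold change of Tnfrsf11b, CT over CG, was -1.47 ± 0.28 between wild types (adjusted p 0.00606 by edgeR) and -1.38 ± 0.27 between mutants (adjusted p 0.00691 by edgeR). Expressed as folds, the CT wild types had 0.361 and the CT mutants 0.385 of the level of their CG counterparts. The difference between the wild types was -0.998 without CG wild-type replicate 2 and -1.83 at the other end of the libraries left out, with 8 of 8 such fits past the threshold. Between the mutants the call was lost without CT mutant replicate 1, at -1.27 with an adjusted p of 0.0527 by edgeR.

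RANKL and its decoy were therefore lower by like amounts, and their ratio was compared within each library. Osteoprotegerin exceeded RANKL in FPKM 20.0-fold and 21.9-fold in CT mutants and 25.1-fold and 20.5-fold in CT wild types, against 40.8-fold and 12.5-fold in CG mutants and 17.7-fold and 27.1-fold in CG wild types. The CG mutant libraries held both the highest and the lowest ratio, and the CT values lay between them. The log2 ratio of Tnfsf11 to Tnfrsf11b averaged -4.45 ± 0.15 in the CT line and -4.48 ± 0.74 in the CG line (SD, n = 4 each), a difference of 0.03 with p = 0.943 by a two-sided exact permutation test. The smallest p that 4 against 4 libraries allow is 0.0286. With a spread of 0.74 in the CG line, a moderate difference in the ratio was not detectable.

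**Figure D2:**
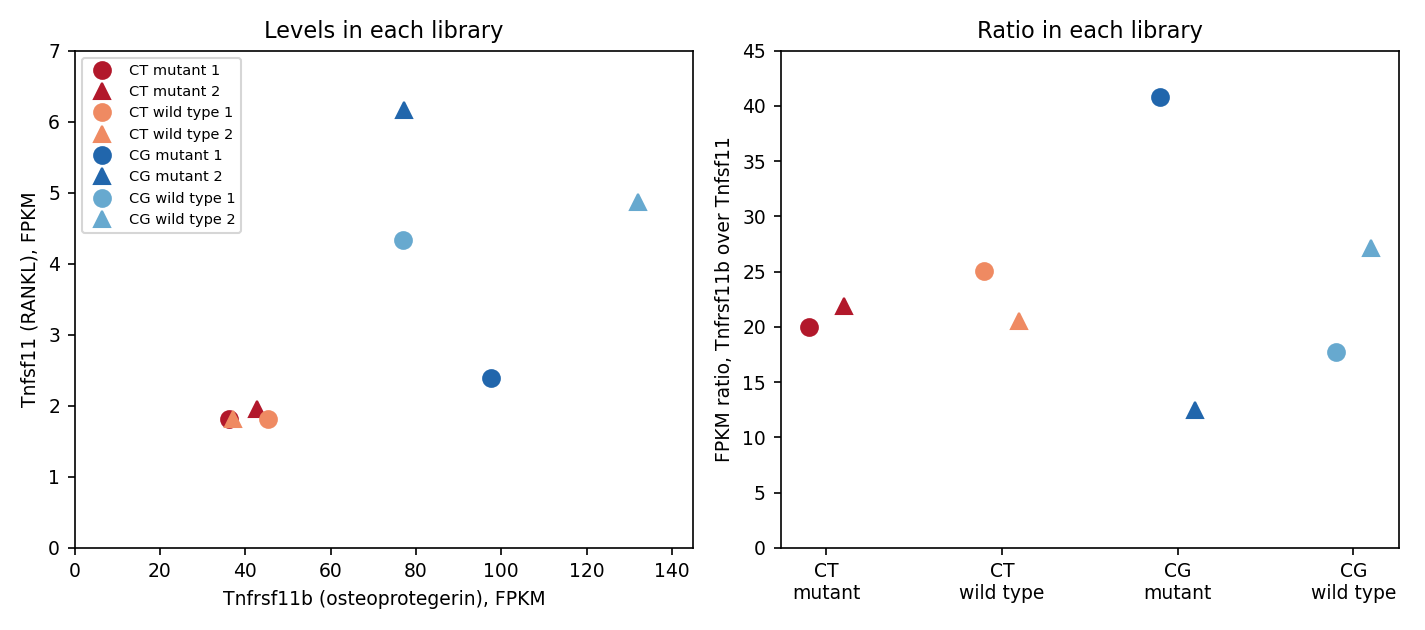
Left, FPKM of Tnfsf11 (RANKL) against FPKM of Tnfrsf11b (osteoprotegerin), one point for each of the 8 libraries; right, the FPKM ratio of Tnfrsf11b to Tnfsf11 by group. The CT libraries sit together at low values of both genes, and the ratio of the CG mutants runs from 12.5 to 40.8.

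Tnfrsf11a, which encodes the RANKL receptor RANK, had 13 and 13 reads in CT mutants and 17 and 19 in CT wild types. It had 4 and 8 reads in CG mutants and 10 and 4 in CG wild types. The CT libraries had the higher values, at counts too low to be tested with any precision. RANKL drives the formation of osteoclasts. The list of 9 osteoclast markers summed to 70.8 to 111 CPM in the CT line and to 144 to 220 CPM in the CG line. Of these markers, the calcitonin receptor gene Calcr had 0 to 6 reads, Dcstamp 0 to 10 and Ocstamp 0 to 8, while Acp5, the gene of the osteoclast phosphatase TRAP, had 87 to 331 and Itgb3 261 to 1109. Ctsk and Mmp9, also on that list, had 841 to 2594 and 415 to 1691 reads. Of the 5 osteoclast markers tested, 0 rose and 1 fell between the wild types, and 0 rose and 2 fell between the mutants. Their median log2 fold change was -0.851 between the wild types and -0.936 between the mutants. Without CG mutant replicate 1 it was -0.849 and -1.57, in the same order. Fibroblast markers summed to 1340 to 1920 CPM in the CT line and 260 to 730 CPM in the CG line, a sum carried by Col1a1 and Col3a1. Of the 6, 1 rose between wild types and 2 between mutants, and the log2 fold changes of the list had a median of 0.11 between wild types and of 0.457 between mutants. Lum, Dpt and Thy1 were at -0.41, -0.53 and -0.21 between wild types. Macrophage markers summed to 315 to 366 CPM in the CT line and 332 to 564 CPM in the CG line, mostly Cd14. Singly, 3 of 7 rose and 1 fell between the wild types, and 2 rose and 0 fell between the mutants, with Ptprc at 2.37, Itgam at 2.04 and Lyz2 at 1.61 between wild types. Endothelial markers summed to 46.8 to 88.0 CPM in the CT line and 9.52 to 29.8 CPM in the CG line. Of the 4, 2 rose and 0 fell between the wild types, and 3 rose and 0 fell between the mutants. Osteoblast markers, at 10.8 to 28.2 CPM, and lymphocyte markers, at 3.26 to 8.57 CPM, were low in all 8 libraries. Of 7 osteoblast markers, 1 rose between the wild types and 2 between the mutants, and 0 fell. Of 3 lymphocyte markers tested, 2 rose and 0 fell between the wild types, and 1 rose and 1 fell between the mutants. Chondrocyte markers moved as well, with 5 of 9 higher and 0 lower in CT wild types and 4 higher and 0 lower in CT mutants, Col9a1 and Comp at 2.40 and 2.21 between wild types. For all genes tested, the share called was 33.7% between the wild types and 36.1% between the mutants. CG mutant replicate 1 had the lowest CG sum of fibroblast, endothelial, osteoblast, osteoclast and macrophage markers. The next lowest CG sums were 677, 21.7, 18.0, 162 and 467 CPM, in that order. Without this library the list medians between mutants were 0.0224 for fibroblast, 1.04 for endothelial, -0.00817 for osteoblast and 0.295 for macrophage markers. With it the last 3 were 1.53, 0.882 and 0.785. The part of these cell types in the results was not tested, and in bulk RNA fewer cells of a type cannot be told apart from less RNA per cell.

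The list of 10 genes that act on RANKL and osteoprotegerin or on osteoclast precursors was tested between the same groups. Between the wild types 1 rose and 4 fell in CT, with a median log2 fold change of -0.526 over the list, against 0.00322 over all genes tested. Between the mutants 2 rose and 3 fell, with a median of -0.318 against -0.00992. The cytokine gene Il11 had 101 and 50.4 CPM in CT mutants and 55.7 and 40.2 CPM in CT wild types, against 699 and 616 CPM in CG mutants and 514 and 608 CPM in CG wild types. Its log2 fold change, CT over CG, was -3.55 ± 0.32 in wild types (adjusted p 0.00039 by edgeR) and -3.12 ± 0.32 in mutants (adjusted p 0.000491 by edgeR). Vdr, the vitamin D receptor gene, fell by 1.45 ± 0.18 in CT wild types and by 1.21 ± 0.18 in CT mutants on the log2 scale. Pth1r, which encodes the receptor of parathyroid hormone and PTHrP, rose by 1.75 ± 0.21 in CT wild types and by 1.24 ± 0.21 in CT mutants. The adjusted p was 0.0012 and 0.00189 for Vdr, and 0.00113 and 0.00336 for Pth1r, by edgeR in wild types and in mutants.

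The background to these counts is wide, because 4843 of 14359 genes, or 33.7%, were called between the wild types and 5184, or 36.1%, between the mutants. Of the 7 members, 3 were called in each of these comparisons, Tnfsf11, Tnfrsf11b and Tnfrsf22, a share close to the background. All 4 CT libraries were below all 4 CG libraries for 3315 genes, or 23.1%, and for 3 members, Tnfsf11, Tnfrsf11b and Tnfrsf1a. All 4 CT libraries were above for 3405 genes, or 23.7%, and for 0 members.

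The paired TRAIL decoy receptors were higher in the mutants of both lines. In CT mutants Tnfrsf23 had 101 and 121 CPM, against 68.1 and 83.1 CPM for CT wild types. It had 91.0 and 99.0 CPM in CG mutants, against 60.3 and 55.5 CPM in CG wild types. Both mutant libraries were above both wild-type libraries in each line. The log2 fold change, mutants over wild types, was 0.55 ± 0.13 (SE) in the CT line, 0.71 ± 0.13 in the CG line and 0.63 ± 0.09 as their mean, a fold of 1.55.

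In CT mutants Tnfrsf22 had 89.1 and 90.5 CPM, against 60.0 and 67.4 CPM for CT wild types. It had 62.6 and 54.7 CPM in CG mutants, against 52.2 and 43.1 CPM in CG wild types. The mutants were again above the wild types in each line, by a smaller margin in the CG line. The log2 fold change, mutants over wild types, was 0.50 ± 0.12 in the CT line and 0.30 ± 0.12 in the CG line. Of 14359 genes, 847, or 5.9%, had both mutant libraries above both wild-type libraries in both lines, and Tnfrsf22 and Tnfrsf23 were the 2 members among them.

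Summed over the pair, and so free of the division of shared reads between them, the level in CT mutants was 201 ± 15.4 CPM, against 139 ± 15.8 CPM for CT wild types. It was 154 ± 0.0368 CPM in CG mutants, against 105.5 ± 9.87 CPM in CG wild types (SD, n = 2 each). The mutant effect on the sum was 0.53 ± 0.11 in the CT line and 0.54 ± 0.11 in the CG line on the log2 scale. Tnfrsf22 made up 46.9% and 42.8% of the summed reads in CT mutants and 46.9% and 44.8% in CT wild types, against 40.8% and 35.6% in CG mutants and 46.4% and 43.7% in CG wild types. The CG mutants were thus the group with the lowest share of Tnfrsf22, a share that rests on the estimated split.

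The estimates for the other 5 members were closer to 0. Tnfrsf11b had a log2 mutant effect of -0.11 ± 0.27 in the CT line and -0.20 ± 0.27 in the CG line, and Tnfsf11 of 0.01 ± 0.36 and -0.08 ± 0.34. Tnfrsf1a was at -0.09 ± 0.09 and 0.08 ± 0.09, Tnfrsf1b at 0.00 ± 0.20 and 0.07 ± 0.20, and Tnfrsf12a at -0.10 ± 0.11 and -0.03 ± 0.11, each in the CT line and then in the CG line.

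Few genes of the whole table were called between mutants and wild types. By edgeR, 1 of 14359 genes, or 0.00696%, was called in the CT line, 1, or 0.00696%, in the CG line, 0, or 0%, for the mean effect and 3, or 0.0209%, for the difference between the effects. DESeq2 called 20 genes in the CT line, 213 in the CG line, 206 for the mean and 38 for the difference. Nothing is read from these counts about the members, which were chosen with these comparisons in view. At an unadjusted p under 0.05, 1646 genes, or 11.5%, passed for the mean effect in edgeR.

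**Figure D3:**
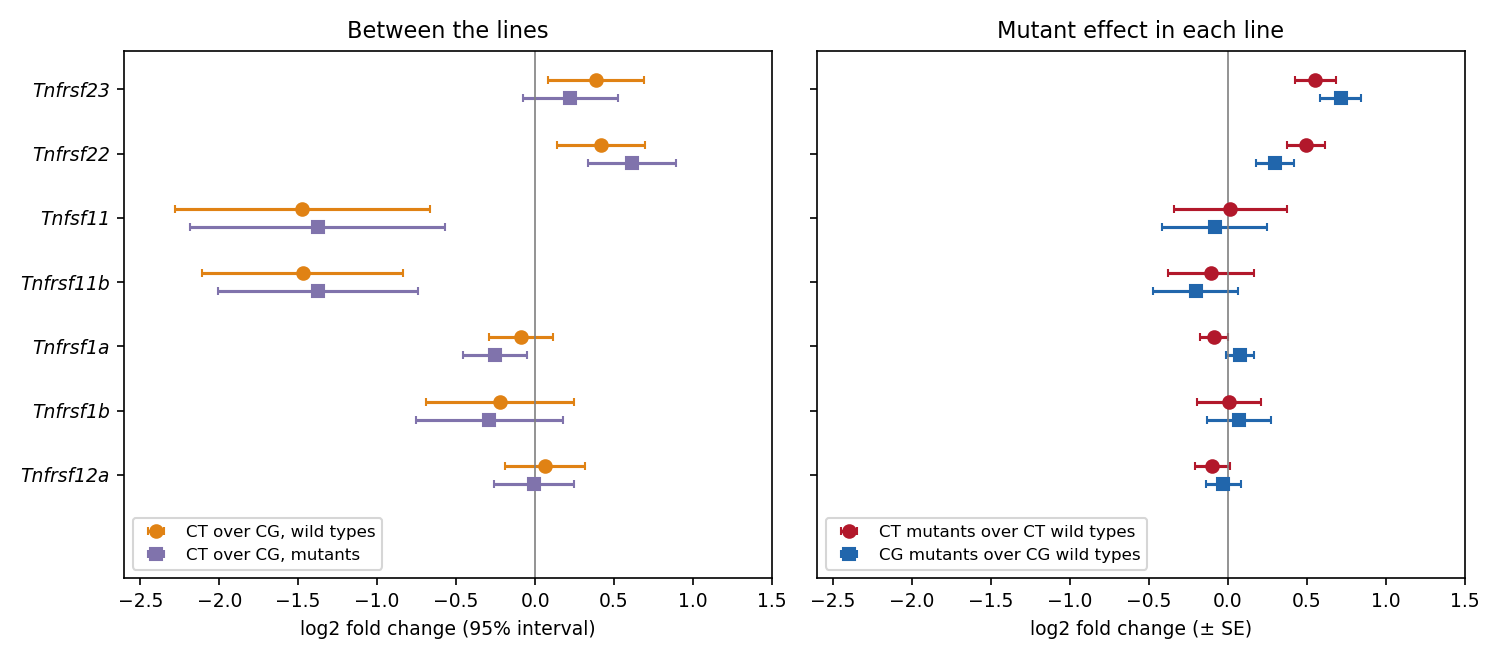
Log2 fold changes for the 7 genes, between the lines with 95% intervals (left, CT over CG, separately in wild types and mutants) and between mutants and wild types of each line with the SE (right, a description with no test). On the left Tnfsf11 and Tnfrsf11b lie near -1.4 and Tnfrsf22 above 0; on the right Tnfrsf23 and Tnfrsf22 lie between 0.30 and 0.71 in both lines.

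Between the lines, Tnfrsf22 was higher in CT chondrocytes. Its log2 fold change, CT over CG, was 0.61 ± 0.12 between mutants (adjusted p 0.00639 by edgeR) and 0.42 ± 0.12 between wild types (adjusted p 0.0309 by edgeR). The call between wild types was lost in 4 of 8 fits that each left out 1 library, at 0.29 with an adjusted p of 0.192 without CG wild-type replicate 2, at 0.33 with 0.138 without CT wild-type replicate 2, and with 0.0519 and 0.0521 without CT mutant replicate 1 or 2, all by edgeR. Tnfrsf23 was at 0.38 ± 0.13 between wild types and 0.22 ± 0.13 between mutants, with adjusted p of 0.0547 and 0.211 by edgeR. Without CT wild-type replicate 1 Tnfrsf23 passed between wild types, at 0.52 with an adjusted p of 0.0354 by edgeR. The sum of the pair was at 0.40 ± 0.11 between wild types and 0.39 ± 0.11 between mutants, with adjusted p of 0.0293 and 0.0308 by edgeR. In the authors' deposited table of comparisons, Tnfrsf22 and Tnfrsf23 were the 2 members listed, and Tnfrsf22 was there at a log2 ratio of 0.42 with a q-value of 0.0371 between wild types and 0.62 with a q-value of 0.000379 between mutants. Tnfrsf23 was in the authors' deposited table at 0.39 with a q-value of 0.0533 between wild types and at 0.23 with a q-value of 0.356 between mutants.

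The genes beside the pair on chromosome 7 were looked at in the same way. In the RefSeq order they are Phlda2, Nap1l4, Cars and Tnfrsf26 on one side and Osbpl5, Mrgpre, Nadsyn1 and Dhcr7 on the other. Tnfrsf26, the closest relative, had a log2 mutant effect of 0.36 ± 0.22 in the CT line and -0.03 ± 0.23 in the CG line. Osbpl5, which encodes an oxysterol-binding protein, was at -0.05 ± 0.08 and -0.01 ± 0.08. Nap1l4, which encodes a nucleosome assembly protein, was at 0.04 ± 0.09 and -0.05 ± 0.09. Phlda2 had 0.30 ± 0.34 and 0.35 ± 0.35 and Mrgpre 0.48 ± 0.32 and 0.21 ± 0.35. Cars was at -0.20 ± 0.11 and -0.09 ± 0.11, Nadsyn1 at -0.07 ± 0.23 and 0.34 ± 0.24, and Dhcr7, an enzyme gene of cholesterol synthesis, at 0.46 ± 0.17 and -0.12 ± 0.18, again in the CT line and then in the CG line. None of the 8 neighbours was called by edgeR in either line. Since 1 of 14359 genes was called in each line, the lack of a call does not set the neighbours apart from other genes.

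**Figure D4:**
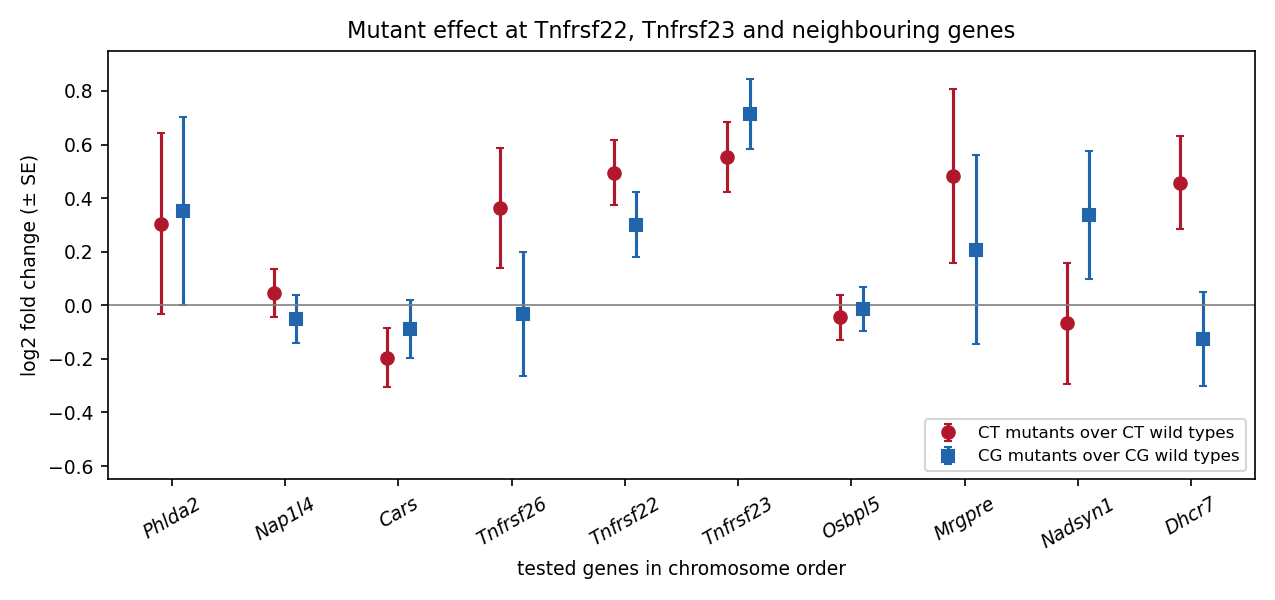
Log2 fold change of mutants over wild types with its SE (vertical axis) for 10 tested genes in chromosome order (horizontal axis), in the CT line (circles) and in the CG line (squares). Tnfrsf22 and Tnfrsf23, in the middle, lie between 0.30 and 0.71 in both lines, Nap1l4 and Osbpl5 lie near 0, and Phlda2 and Mrgpre are above 0 in both lines with longer bars.

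The ligand gene of the pair was barely counted. Tnfsf10, which encodes TRAIL, had 2.26 to 20.65 estimated reads per library. Its signalling receptor gene Tnfrsf10b had 109 and 102 CPM in CT mutants and 117 and 116 CPM in CT wild types, against 52.6 and 59.2 CPM in CG mutants and 84.3 and 73.1 CPM in CG wild types. Tnfrsf10b was higher in the CT line in both comparisons, at 0.92 ± 0.10 between mutants (adjusted p 0.000738 by edgeR) and 0.57 ± 0.10 between wild types (adjusted p 0.00559 by edgeR). The CG mutant libraries were the lowest of the 8 for Tnfrsf10b.

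The genes of the TNF receptors did not pass the test between the lines. Tnfrsf1a had 170.4 and 161 CPM in CT mutants and 185 and 168 CPM in CT wild types, against 192 and 203 CPM in CG mutants and 185 and 189 CPM in CG wild types. The CT libraries were all below the CG libraries, by a margin of under 1 CPM between the closest. The log2 fold change, CT over CG, was -0.25 ± 0.09 between mutants (95% interval -0.45 to -0.05, adjusted p 0.0564 by edgeR) and -0.09 ± 0.09 between wild types (95% interval -0.29 to 0.12, adjusted p 0.475 by edgeR). On the log2(FPKM + 1) scale, where all genes were shifted up in CT by a median of 0.115, the difference between wild types was 0.04, below that median, so only its sign against 0 turned with the scaling.

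Tnfrsf1b, which is found mainly on immune cells in other tissues, had 67.8 and 54.4 CPM in CT mutants and 71.4 and 50.5 CPM in CT wild types, against 64.2 and 85.0 CPM in CG mutants and 65.3 and 76.9 CPM in CG wild types. The groups overlapped. It was at -0.29 ± 0.20 between mutants (95% interval -0.76 to 0.18) and -0.22 ± 0.20 between wild types (95% interval -0.69 to 0.24), with adjusted p of 0.294 and 0.426 by edgeR.

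Tnfrsf12a had 458 and 407 CPM in CT mutants and 443 and 484 CPM in CT wild types, against 462 and 408 CPM in CG mutants and 432 and 456 CPM in CG wild types. The 8 libraries thus lay within 407 and 484 CPM, with the groups overlapping. Its log2 fold change was -0.01 ± 0.11 between mutants (95% interval -0.26 to 0.24) and 0.06 ± 0.11 between wild types (95% interval -0.19 to 0.31), with adjusted p of 0.961 and 0.692 by edgeR. On log2(FPKM + 1) the difference between mutants was 0.21, where the median of all genes was 0.181. Its ligand gene Tnfsf12 (TWEAK) had 104.16 to 191.74 estimated reads per library.

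Many of the listed genes downstream of these receptors fell in CT chondrocytes. Of 18 NF-kB subunits, inhibitors and TNF-induced genes, 0 rose and 11 fell between the wild types, and 0 rose and 9 fell between the mutants. Of 14359 genes, 2436 rose and 2407 fell between the wild types, or 33.7%, and 2564 rose and 2620 fell between the mutants, or 36.1%. The median log2 fold change, CT over CG, was -0.684 over the list between wild types and -0.511 between mutants, against 0.00322 and -0.00992 over all genes tested. Without CG mutant replicate 1 the list median was -0.683 between the wild types and -0.745 between the mutants. Il6, a cytokine gene, had 1.86 and 1.69 CPM in CT mutants and 1.62 and 1.39 CPM in CT wild types, against 6.82 and 37.7 CPM in CG mutants and 46.8 and 52.2 CPM in CG wild types. It fell by 3.65 ± 0.70 in CT mutants (adjusted p 0.00596 by edgeR) and by 5.03 ± 0.73 in CT wild types (adjusted p 0.00224 by edgeR) on the log2 scale. The lower of the CG mutant libraries was replicate 1, which was also lowest of the CG line for Tnfsf11 and for Tnf.

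Nfkbie and Bcl3, which encode proteins of the IkB family, fell by 1.21 ± 0.20 and 0.99 ± 0.16 in CT mutants, with adjusted p of 0.00336 and 0.00275 by edgeR. The chemokine gene Ccl2 and the mitochondrial superoxide dismutase gene Sod2 fell by 2.00 ± 0.45 and 1.36 ± 0.28 in CT wild types, with adjusted p of 0.0122 and 0.00881 by edgeR. Tnf itself had 1.90 and 1.56 CPM in CT mutants and 3.25 and 0.986 CPM in CT wild types, against 1.87 and 6.53 CPM in CG mutants and 9.02 and 11.8 CPM in CG wild types. Tnf fell by 2.30 ± 0.63 in CT wild types (adjusted p 0.0257 by edgeR), while between the mutants its log2 fold change was -1.29 ± 0.64 (adjusted p 0.153 by edgeR).

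**Figure D5:**
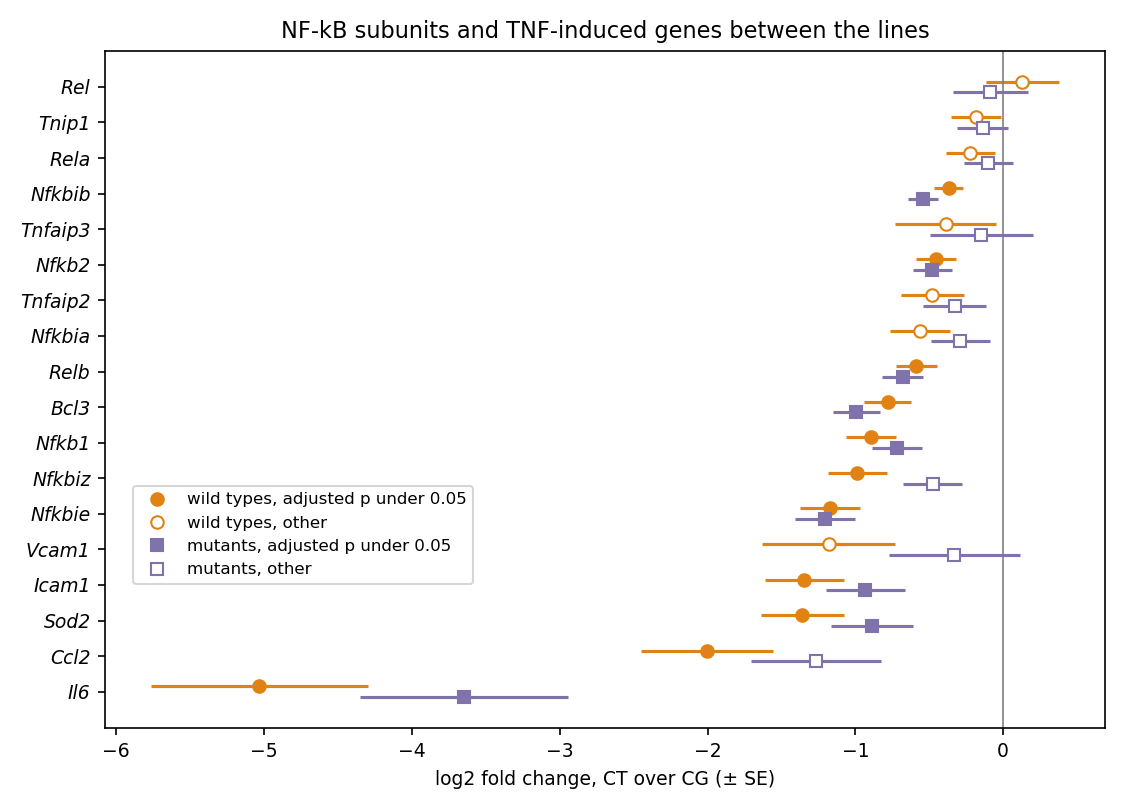
Log2 fold change, CT over CG, with its SE (horizontal axis) for 18 NF-kB subunits and TNF-induced genes (rows), in wild types (circles) and mutants (squares); filled points have an adjusted p under 0.05. No filled point lies above 0, and Il6 lies farthest below it, at -5.03 in wild types.

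The adaptors and kinases that link receptors to NF-kB and to caspases were all 25 tested, and 2 rose and 10 fell between the wild types, while 2 rose and 9 fell between the mutants. Over all genes 33.7% were called between the wild types and 36.1% between the mutants. The median over the list was -0.184 and -0.102. Birc2 and Birc3, which encode ubiquitin ligases bound to TNF receptor complexes, fell by 1.14 ± 0.13 and 1.19 ± 0.21 in CT wild types (adjusted p 0.000755 and 0.00461 by edgeR). They fell by 1.13 ± 0.13 and 1.06 ± 0.21 in CT mutants (adjusted p 0.000698 and 0.00641 by edgeR). Cyld, which encodes a deubiquitinase, fell by 0.98 ± 0.12 in CT mutants (adjusted p 0.000898 by edgeR), and Casp8, the initiator caspase gene, rose by 0.82 ± 0.15 in CT wild types (adjusted p 0.00564 by edgeR). Without CG mutant replicate 1 the list median between the mutants was -0.0788, against -0.102 with it. That fit leaves 1 library in the group, so its calls were not compared.

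Of 22 other receptors of the family, 18 were tested, and 2 rose and 4 fell between the wild types, while 4 rose and 2 fell between the mutants. These counts are near the 33.7% and 36.1% called over all genes. The median was -0.0272 and 0.0453. Fas, the death receptor gene, fell by 1.40 ± 0.23 in CT wild types and by 1.27 ± 0.24 in CT mutants (adjusted p 0.00391 and 0.0055 by edgeR). Relt, an orphan receptor gene, rose by 1.06 ± 0.14 in CT wild types and by 0.53 ± 0.14 in CT mutants (adjusted p 0.00153 and 0.02 by edgeR). Eda2r, the gene of a receptor for ectodysplasin A2, fell by 0.70 ± 0.18 in CT wild types (adjusted p 0.0198 by edgeR). Without CG mutant replicate 1 the median of the receptor list between the mutants was 0.0914, against 0.0453 with it. Its calls were not compared, because 1 library is left in the group.

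Of 17 other ligands, 11 were tested, with 1 higher and 3 lower in CT wild types and 1 higher and 0 lower in CT mutants by edgeR. Between mutants 2 of the 11 had an unadjusted p under 0.05 in edgeR, against 47.1% of all genes tested. The count of 0 lower in CT mutants depended on CG mutant replicate 1, without which the median log2 fold change of the list was -0.271. Over all genes 33.7% were called between wild types and 36.1% between mutants, so the 4 of 11 ligands are near that share and the 1 of 11 is below it. The median was -0.604 and -0.175. Tnfsf9, the gene of the 4-1BB ligand, had 28.2 and 26.8 CPM in CT mutants and 27.2 and 26.8 CPM in CT wild types, against 1.58 and 2.52 CPM in CG mutants and 2.68 and 2.91 CPM in CG wild types. It rose by 3.27 ± 0.19 in CT wild types (adjusted p 0.00011 by edgeR) and by 3.74 ± 0.20 in CT mutants (adjusted p 0.000104 by edgeR).

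Between mutants and wild types, no gene of these 5 lists was called by edgeR in either line, for the mean effect or for the difference. For the mean effect, 7 of 18 receptors, 3 of 11 ligands, 3 of 25 adaptors, 5 of 18 NF-kB genes and 3 of 10 RANKL regulators had an unadjusted p under 0.05 in edgeR. The share over all genes tested was 11.5%. DESeq2 called Eda2r, Tnfrsf10b and the prostaglandin receptor gene Ptger4 lower in CG mutants and for the mean effect, at log2 fold changes of -1.06, -0.497 and -0.872 in the CG line. In limma on log2(FPKM + 1) 0 genes of the lists were called.

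Across the 8 libraries, the log2 CPM of Tnfrsf22 and Tnfrsf23 correlated at r = 0.821, and that of Tnfrsf11b and Tnfsf11 at r = 0.808. These 8 points share 2 lines and 4 groups, so the values describe the libraries and carry no test. Of 11196 genes, Gcc2, Prex2 and Exosc3 were closest to Tnfrsf23, at r = 0.977, 0.957 and 0.954, among 31 genes above 0.9. For Tnfrsf11b the closest were Fam126a, Git2 and Rnf114, at r = 0.988, 0.986 and 0.984, among 905 genes above 0.9. For Tnfsf11 they were Slc1a7, Chrna1 and Glrx, at r = 0.988, 0.987 and 0.986, among 411. Both genes of the RANKL axis thus had more genes above 0.9 than Tnfrsf23.

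Promoters in RefSeq on GRCm38.p6, from 250 bases before to 50 after the start, were found for 5 of 7 members, not for Tnfrsf22 and Tnfrsf11b. They are shown for Tnfrsf23 at chr7:143685826-143686125 and for Tnfsf11 at chr14:78307994-78308293, both on the minus strand. Tnfrsf23 is the member named in the earlier results, and Tnfsf11 was called between the lines. Capitals mark matches on either strand to TATAAA, to CCAAT and to GGGCGG.
Tnfrsf23: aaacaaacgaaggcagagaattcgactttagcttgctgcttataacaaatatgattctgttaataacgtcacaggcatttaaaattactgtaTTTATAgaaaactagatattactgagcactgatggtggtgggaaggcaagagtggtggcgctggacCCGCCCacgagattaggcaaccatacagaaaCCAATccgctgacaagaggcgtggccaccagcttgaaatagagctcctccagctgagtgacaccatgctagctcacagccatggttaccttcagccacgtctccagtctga
Tnfsf11: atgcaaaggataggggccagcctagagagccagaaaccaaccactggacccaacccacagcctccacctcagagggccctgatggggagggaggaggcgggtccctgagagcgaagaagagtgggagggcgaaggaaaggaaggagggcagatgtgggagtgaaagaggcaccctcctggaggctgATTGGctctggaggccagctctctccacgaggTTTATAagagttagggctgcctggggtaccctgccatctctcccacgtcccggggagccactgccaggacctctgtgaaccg
Tnfrsf23 held TATAAA at -158, GGGCGG at -92 and CCAAT at -61 from the start, and Tnfsf11 held CCAAT at -64 and TATAAA at -32. Of 32851 promoters of that length, 13.6% held TATAAA, 37.4% CCAAT and 35.7% GGGCGG. The NF-kB consensus, TGACGTCA and TGAGTCA were searched as well, which 4.51%, 1.79% and 5.2% of promoters hold, and none of the 5 promoters held them in this window. These are letters in a window and not shown to be used.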

How the data were processed

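Per the labels' protocols, RNA of plated rib chondrocytes was extracted with TRIzol, and alignment used HISAT2 2.0.4 and the mm9 build, per the submitters' processing notes. For the read counter, the sources used here give no name. The authors deposited estimated counts and FPKM for each gene in each library. The authors' deposited table of comparisons holds log2 ratios and q-values in 4 comparisons. The members and the gene lists were chosen with earlier results of these data known.

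Estimated counts were rounded and fitted in edgeR 4.0.16 (R 4.3.3) with 4 group means over 8 libraries, TMM factors, the default filter and 14359 genes. The quasi-likelihood F test was used, with Benjamini-Hochberg adjustment and a threshold of 0.05. An SE is the absolute log2 fold change over the root of F. DESeq2 1.42.0 and limma 3.58.1 on log2(FPKM + 1) or log2(FPKM + 0.1) were alternatives, as were a replicate block, a term for Ddx3y, other filters and each library left out. Where 1 library of a group was left out, the remaining one was assumed to vary like the other groups. The fit was tested on simulated data. All 7 members are named; of the other lists, the 3 called genes with the largest change and a mean log2-CPM of at least 1 are named, and genes with a stated link to a member. Tnfrsf11a, Tnfsf10, Tnfrsf10b, Tnfsf12, and Tnf between mutants, were added after their values were seen, as were list values without CG mutant replicate 1. Sequences come from RefSeq on GRCm38.p6 and GENCODE M21. Ddx3y, a Y-linked gene, had 3512 and 30 reads in CT mutants, 3669 and 10 in CT wild types, 2231 and 2360 in CG mutants and 2 and 2511 in CG wild types, so sexes were mixed within 3 groups. P-values reflect library-to-library spread, which may be partly technical. Replicate numbers are shared between groups, and the labels do not say what a number marks.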

Additional observations from a re-analysis of the deposited data

How the results depend on the processing

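Of 688 alternative values, 645 were counted as the same, 16 moved, 9 reversed, 5 became stronger and 13 weaker. Between the lines, the same meant an unchanged direction and side of the threshold. For mutant effects it meant a log2 fold change within 1 SE of the main one, whatever its sign or adjusted p, and moved meant farther. DESeq2 called 1 member for the CG mutant effect and 2 for the mean effect, against 0 by edgeR. Over all genes it called 213 and 206 of 18473 fitted, against 1 and 0 of 14359 by edgeR. Such member counts for mutant effects describe members chosen with these comparisons known and are no test. With 1 library left out at a time, 0 to 1 members were called for the mean effect, 1 to 3 between the wild types and 1 to 3 between the mutants. The single call between wild types came when replicate 2 of either wild-type group was left out, and that between mutants without CT mutant replicate 1. The number called over all genes also moved widely over the libraries left out, so these member counts are not read as a trait of the members. The difference between the lines, CT minus CG, in the log2 ratio of Tnfsf11 to Tnfrsf11b ran from -0.26 to 0.31 over libraries left out. Between mutants, Tnfsf11 had an adjusted p of 0.06 with only the groups compared and of 0.0605 and 0.0567 in limma on FPKM. Tnfrsf23 between wild types passed the threshold in DESeq2 (adjusted p 0.0385), in limma (0.0406 and 0.0409) and with the Ddx3y term (0.0209). Tnfrsf1a between wild types was at 0.0395 with 1 and 0.0399 with 0.1 added to FPKM. Tnfrsf12a between mutants was at 0.21 with either, at 0.0113 with the Ddx3y term, and from -0.103 to 0.0806 over libraries left out; between wild types it ran from -0.0025 to 0.13. Tnfrsf1b between wild types ran from -0.49 to 0.0069. The cause was not tested.

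Same-numbered libraries of CT mutants and CT wild types deviated together (r = 0.248), and in that line the number also goes with the Ddx3y count; the other 5 pairs of groups had r from -0.0892 to 0.0186, so the numbers were not taken to pair the samples. With the replicate block, 3 members were called between the wild types and 3 between the mutants, and 0 for each mutant effect, as without it. Over all genes, leaving out CG mutant replicate 2 gave 522 calls for the CG mutant effect and 319 for the mean. With 2 libraries per group, small effects are not detectable.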
